A study of Mus musculus with 7 samples.

Results

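The sodium/proton exchangers with Slc9b1 are 6 genes chosen by name among the 26019 gene rows of the deposited table. They are Slc9b1 and Slc9b2, the exchangers Slc9a7, Slc9a8 and Slc9a9 of internal membranes, and Slc9a3r1. The last is no exchanger but codes for NHERF1, a scaffold that holds exchangers at the cell cortex. The group was put together because Slc9b1 was already known to be among the genes with the largest decreases in these libraries, so the differences of the 6 genes between KO and WT are given as a description and without a p-value. All 6 had a row, and 5 had the 3 libraries with a value of 1 or more that testing required; Slc9b2 did not.

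RNA was measured by Smart-Seq2, which copies and amplifies the polyadenylated RNA of a few cells along its whole length. Each library was made from 5 pooled oocytes of secondary follicles, the stage at which a growing oocyte lies inside several layers of granulosa cells. The groups are KO (n = 3 libraries) and WT (n = 4 libraries), both on the C57BL/6J strain and, by the protocol, from mice 8 weeks old, although P1 stands under age in the labels. In the design text the KO genotype is Mfn2-/-, and the title names mitofusin 2, a protein that fuses outer mitochondrial membranes, whereas the genotype label and the protocol read Mfn1-/-. The design text also counts 3 for each group, while the labels list 4 WT libraries, all of which were used. The sources used here do not give how the allele was made, in which cells the deletion acts or which mice gave each library. A p-value therefore measures the spread among these libraries alone, and that spread may be technical. Mfn2 had 7.27, 4.55 and 7.66 normalised counts in KO libraries and 35.3, 35.1, 15.0 and 29.2 in WT libraries, while Mfn1 averaged 330.3 ± 19.9 in KO and 289 ± 36.3 in WT (SD, n = 3 and 4). The KO libraries held 6851042 to 8343915 reads in genes and the WT libraries 6676076 to 7741141. A normalised count is a number of reads divided by the library's size factor (0.914 to 1.10), so it is close to a number of reads. Values are relative to each pooled library, in which fewer cells of a type and less RNA per cell cannot be told apart.

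Sodium/proton exchangers of the SLC9 family move protons across a membrane in exchange for sodium or potassium. The members of the A branch at the cell surface remove acid from the cytosol, and those in the Golgi apparatus and endosomes set the pH inside these compartments. The B branch, also called NHA, is closer in sequence to bacterial exchangers. Its member Slc9b1 is best known in mouse sperm, where it is needed for motility and normal cyclic AMP levels, and Slc9b2 has been described in bone-resorbing osteoclasts and in insulin secretion. Growing mouse oocytes are known to depend in part on the surrounding granulosa cells, through gap junctions, for control of their internal pH.

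Slc9b1 and Slc9b2 lie next to each other on the plus strand of chromosome 3. Slc9b2 (ENSMUSG00000037994.14; GRCm38, 135307700 to 135345387) ends 2641 bases before the start of Slc9b1 (ENSMUSG00000050150.16; 135348029 to 135397827). Slc9b1 has 9 annotated transcripts, whose exons merge into 14 blocks with 3689 bases. Their start regions are shown because these neighbours had very different levels, together with that of Slc9a8, whose KO libraries all lay above the WT libraries. Each run gives 250 bases before and 50 after the annotated start (RefSeq, GRCm38.p6), at chr3:135347779-135348078 and chr3:135307450-135307749 on the plus strand and chr2:167421460-167421759 on the plus strand. Capitals mark the GC box, searched as GGGCGG on both strands.
Slc9b1: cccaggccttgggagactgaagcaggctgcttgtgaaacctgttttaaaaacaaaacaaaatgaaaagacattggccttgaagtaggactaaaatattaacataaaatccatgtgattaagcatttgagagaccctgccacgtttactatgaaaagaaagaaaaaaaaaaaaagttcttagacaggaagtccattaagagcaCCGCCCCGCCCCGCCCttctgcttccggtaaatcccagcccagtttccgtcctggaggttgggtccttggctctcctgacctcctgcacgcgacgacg
Slc9b2: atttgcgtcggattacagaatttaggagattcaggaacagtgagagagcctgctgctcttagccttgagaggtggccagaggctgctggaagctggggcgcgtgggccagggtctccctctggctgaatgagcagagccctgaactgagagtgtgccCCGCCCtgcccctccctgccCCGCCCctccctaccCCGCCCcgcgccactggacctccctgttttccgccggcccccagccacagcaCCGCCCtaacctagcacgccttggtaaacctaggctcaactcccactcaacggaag
Slc9a8: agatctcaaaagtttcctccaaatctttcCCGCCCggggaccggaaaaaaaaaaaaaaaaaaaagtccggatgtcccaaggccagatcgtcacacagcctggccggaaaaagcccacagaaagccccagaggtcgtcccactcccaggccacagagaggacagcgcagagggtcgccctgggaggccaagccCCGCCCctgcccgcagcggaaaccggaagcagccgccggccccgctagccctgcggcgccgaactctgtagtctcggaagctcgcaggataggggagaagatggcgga
The Slc9b1 region holds 3 GC boxes that overlap by a single base each and begin 48, 43 and 38 bases before the start. The Slc9b2 region holds 4, beginning 93, 73, 58 and 6 bases before it, and the Slc9a8 region 2, beginning 221 and 58 bases before it. All 6 genes had an entry in the table of start regions, and 5 of the 6 entries, all but that of Slc9a9, held a GC box. It occurs in 35.7% of the 32851 start regions of the same length in that table. TATAAA occurred in 0 of the 6 regions, against 13.6% of all, and CCAAT in 2 of them, Slc9b1 and Slc9a3r1, against 37.4%. The E-box CANNTG, searched on both strands and including CACGTG, occurred in 4 of the 6 regions, with 2 positions in Slc9b1, against 72.3% of all. The Slc9b1 region had 10 CpG dinucleotides and a GC content of 46.3%, and the Slc9b2 region 14 and 63.3%, against medians of 7 and 52.7% over the table.

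Slc9b1 was the member with the largest difference between the groups, and it was lower in KO. It had 203, 60.0 and 101 normalised counts in KO libraries and 428, 332, 570.2 and 406 in WT libraries. The highest KO library, KO 1, thus lay below the lowest WT library, WT 2. The means were 121 ± 73.5 in KO and 434 ± 99.5 in WT (SD, n = 3 and 4), a ratio of means 3.59-fold lower in KO. On the log2(value + 1) scale, which understates the change of low genes, the difference of KO minus WT was -1.98 (SE 0.38, 95% interval of the fit -2.87 to -1.10). It was the 145th lowest of 19227 genes tested. Since Slc9b1 was chosen for its decrease in this contrast, its interval lacks the nominal coverage and its rank follows from the choice. The intervals given for the members describe the fit and are no test.

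Among the 5 members tested, 1 (Slc9b1, lower) was past the threshold of the limma fit, a Benjamini-Hochberg adjusted p under 0.05 over all genes tested. By the same rule 6.71% of all genes tested were called, 3.63% lower and 3.09% higher. Since the genes were chosen with this contrast in view, nothing is read from that count. Slc9b1 was not past the threshold when KO 3 or WT 1 was left out, with differences of -1.94 and -1.98. The groups did not overlap for 2 of the 6 members, Slc9b1 and Slc9a8, as was so for 19.2% of all genes tested, 9.83% with KO lower and 9.37% with KO higher.

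The KO libraries differed among themselves in Slc9b1 by more than counting error. The 223 reads of KO 1 correspond to 203 normalised counts with an exact 95% Poisson interval of 177 to 231. The 66 reads of KO 2 correspond to 60.0 (46.4 to 76.3) and the 92 reads of KO 3 to 101 (81.1 to 123). None of these 3 intervals overlapped, and the highest KO value was 3.38 times the lowest, against 1.72 times among WT libraries. The intervals cover counting error only, since reads amplified from a few cells are not independent molecules. The SD of Slc9b1 within groups was 0.61 on the log2 scale. Of 2222 genes with a mean within 1.5 times that of Slc9b1, 99.1% had a smaller SD, and their median was 0.21.

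**Figure D1:**
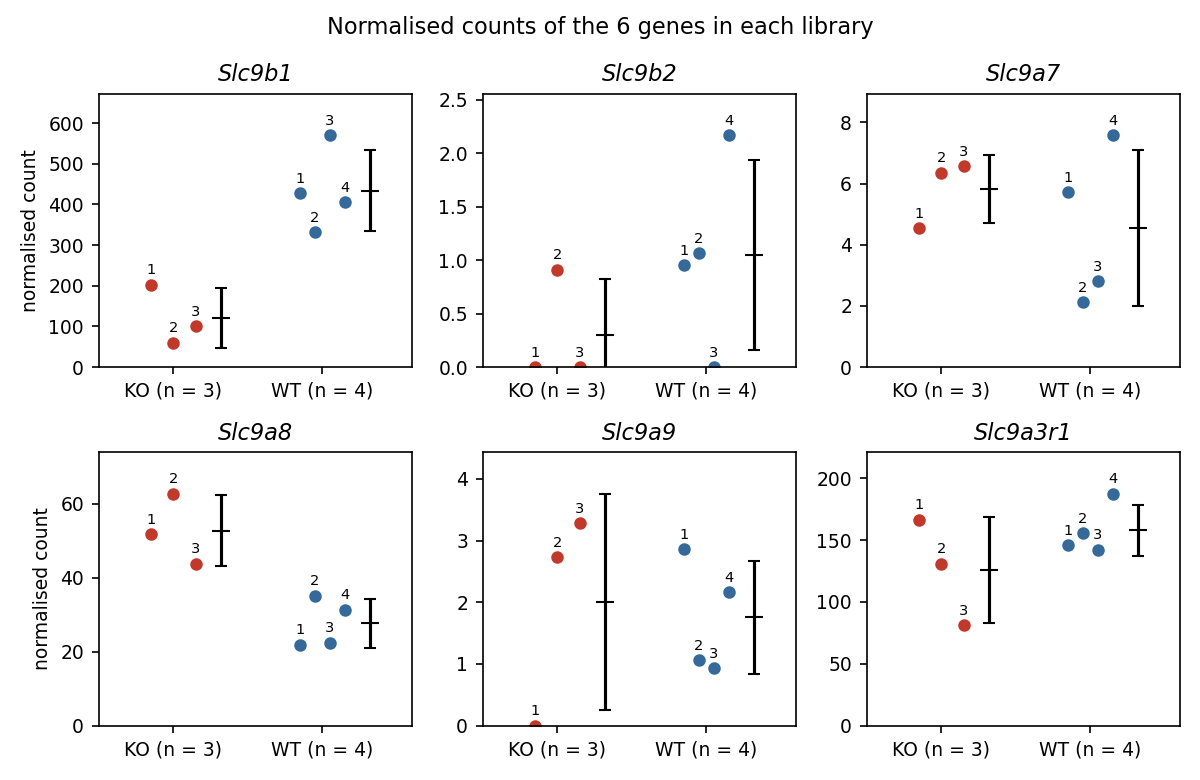
Normalised counts of the 6 genes in each library (numbered points; KO in red on the left, WT in blue on the right) with mean and SD in black, on a linear axis from 0 with its own scale in each panel. For Slc9b1 the KO libraries lie at 60.0 to 203 and the WT libraries at 332 to 570.2, and for Slc9a8 the KO libraries lie at 43.8 to 62.7 and the WT libraries at 21.9 to 35.1; the groups overlap in the other panels.

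Slc9b2, the neighbour and closest relative of Slc9b1 in the mouse genome, was close to undetected. It had 0, 1 and 0 reads in KO libraries and 1, 1, 0 and 2 reads in WT libraries. A count of 0 allows up to 3 reads, which is 2.73 to 3.28 normalised counts in the 3 libraries at 0, so all values were at or under this limit and no fold is given. The reads of Slc9b1 were not shared with Slc9b2 through identical sequence. None of the 75-base stretches of the annotated transcripts of the 6 genes occurs in a transcript of another gene, and 0 of the 6 have exons that overlap those of another annotated gene.

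Of the exchangers of internal membranes, Slc9a8 (NHE8, of the Golgi apparatus; ENSMUSG00000039463.14, chromosome 2, 167421712 to 167477000, plus strand) was the one with separate groups. It had 51.8, 62.7 and 43.8 normalised counts in KO libraries and 21.9, 35.1, 22.4 and 31.4 in WT libraries. Each KO library lay above each WT library, a separation in the direction of higher KO that 9.37% of all genes tested showed. The means were 52.8 ± 9.52 in KO and 27.7 ± 6.59 in WT, a log2 difference of 0.92 (SE 0.29; 95% interval 0.32 to 1.51). Slc9a8 did not pass the threshold over all genes. It passed once genes had to reach 10 in 3 libraries, where fewer genes were tested, with the same log2 difference of 0.92.

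Slc9a7 and Slc9a9 had few reads. Slc9a7 (NHE7, of the trans-Golgi network; ENSMUSG00000037341.14, chromosome X, 20105754 to 20291807, minus strand) had 4.54, 6.36 and 6.56 normalised counts in KO libraries and 5.72, 2.13, 2.80 and 7.58 in WT libraries. All KO values fell inside the WT range, and the log2 difference of 0.40 (SE 0.53) had an interval from -0.71 to 1.51. It was 0.16 without WT 2 and 0.65 without WT 4. The sign of the difference turned, to -0.35, with the mean granulosa marker level as a covariate, in a fit that called 1 of 19227 genes. Slc9a9 (NHE9, of late recycling endosomes; ENSMUSG00000031129.9, chromosome 9, 94669909 to 95230445, plus strand) had 0, 3 and 3 reads in KO libraries and 3, 1, 1 and 2 reads in WT libraries. Every library was at or under the limit that a count of 0 allows, so a difference was not detectable at this depth.

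The scaffold gene Slc9a3r1 (ENSMUSG00000020733.3; chromosome 11, 115163341 to 115181181, plus strand) was well detected, with 166, 131 and 81.0 normalised counts in KO libraries and 146, 156, 142 and 187 in WT libraries. KO 1 lay within the WT range, while KO 2 and KO 3 lay below it. The means were 126 ± 42.9 in KO and 158 ± 20.6 in WT, with a log2 difference of -0.37 (SE 0.22; interval -0.83 to 0.09), and it did not pass the threshold. The difference was -0.60 without KO 1 and -0.09 without KO 3. Its sign turned, to 0.08, without KO 2 and KO 3, and to 0.13 with the mean granulosa marker level as a covariate. The fit with the covariate called 1 of 19227 genes.

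Levels of different genes were compared per kilobase of merged exon, over these 6 genes and 5 other SLC9 exchangers of the table. In KO libraries Slc9a3r1 came first with 65.5 ± 22.3 normalised counts per kilobase, and Slc9b1 came next with 32.8 ± 19.9, with overlapping ranges. In WT libraries Slc9b1 was first with 118 ± 27.0 and Slc9a3r1 second with 81.9 ± 10.7, again with overlapping ranges. Below them in KO libraries stood Slc9a3 (20.2 ± 4.06) and Slc9a4 (15.3 ± 2.33), exchangers known from the cell surface, whose ranges overlapped each other and that of Slc9b1. In WT libraries these genes had 18.7 ± 2.48 and 14.3 ± 5.79. There Slc9a3 lay wholly below Slc9a3r1, and the ranges of Slc9a3 and Slc9a4 overlapped. The exons of Slc9a4 overlap those of 2 annotated genes on the opposite strand, so its reads may be shared.

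Slc9a8 followed Slc9a4 in both groups, with 5.80 ± 1.05 per kilobase in KO and 3.05 ± 0.72 in WT, in each case wholly below it. Slc9a7 came next (1.52 ± 0.29 in KO and 1.19 ± 0.67 in WT), wholly below Slc9a8. Slc9c1, Slc9a5, Slc9a2, Slc9a9 and Slc9b2 followed in both groups, from 0.61 down to 0.06 in KO and from 0.56 down to 0.19 in WT. Each of these overlapped the gene before it in range, apart from Slc9c1 in KO, which lay below Slc9a7. Slc9b1 exceeded 64.4% of the 17703 tested genes with an exon length in KO and 81.6% in WT.

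**Figure D2:**
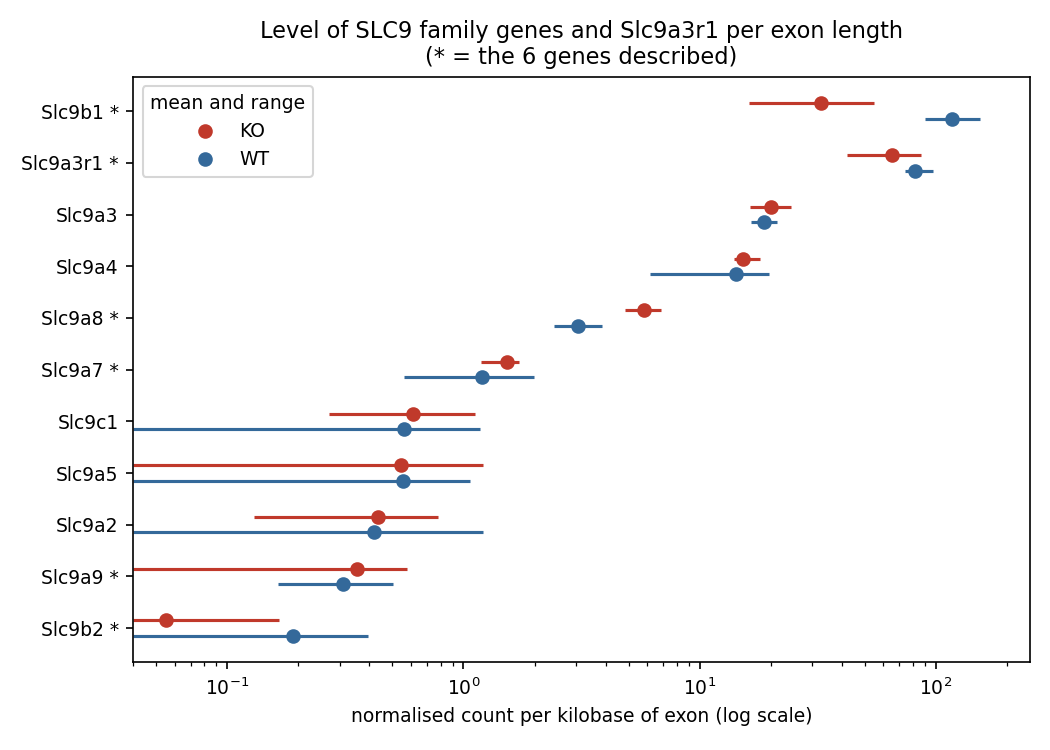
Normalised count per kilobase of exon, on a log axis, for the 6 genes (starred) and 5 other SLC9 exchangers, ordered by the WT level; points are means and lines the range over libraries, KO in red above WT in blue, and a line that reaches the left edge includes a library at 0. Slc9b1 lies at 32.8 in KO and 118 in WT, and Slc9b2 is last in both groups.

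The summed level of these 10 exchangers per kilobase was made up of Slc9b1 to a different extent in the groups. Slc9b1 gave 53.4%, 28.9% and 37.1% of the sum in KO libraries and 75.6%, 66.0%, 78.3% and 78.4% in WT libraries. The other 9 exchangers together had 47.97, 40.1 and 46.2 normalised counts per kilobase in KO libraries and 37.4, 46.4, 42.8 and 30.4 in WT libraries. These sums overlapped, with means of 44.8 ± 4.14 in KO and 39.2 ± 6.97 in WT.

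The 5 other exchangers were tested in the same fit. With limma 0 of 5 were called, 0 had an unadjusted p under 0.05, and edgeR and DESeq2 on the recovered reads called 0 and 0, against 6.53% and 9.18% of all genes they tested. Their median log2 difference was 0.21, against -0.01 over all genes tested. Slc9a4 had the smallest p of them, with 63.6, 63.6 and 82.0 normalised counts in KO libraries and 65.8, 89.5, 76.6 and 28.2 in WT libraries (log2 difference 0.21, SE 0.32; limma adjusted p = 0.762). Slc9a3, best known from the apical surface of gut and kidney epithelia, had 134, 90.003 and 108 in KO libraries and 90.6, 117, 112 and 92.1 in WT libraries (0.10, SE 0.21; limma adjusted p = 0.837). The groups overlapped in both genes. Slc9a2 (0.36, SE 0.71) and Slc9c1, a sperm exchanger (0.22, SE 0.66), had limma adjusted p of 0.822 and 0.888, each at a mean of 2.27 to 3.03 normalised counts per group. Whether the difference of Slc9b1 departs from those of the other exchangers was not tested.

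Beyond the exchangers themselves, 9 lists of genes for the transport of protons, sodium, bicarbonate and calcium and for proteins that bind the exchangers held 125 entries, the other exchangers included. Of these 102 had a row and 82 were tested. Of the 82, 3 rose and 4 fell in KO, 8.54% in all, against the 6.71% of all genes tested, and 75 were not called. Their median log2 difference was -0.02.

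Of 11 tested proteins that bind sodium/proton exchangers, 1 rose and 0 fell (median log2 difference 0.10). It was Scamp1, a carrier membrane protein of the secretory pathway whose family is known to bind NHE7. Scamp1 had 738, 751 and 857 normalised counts in KO libraries and 420, 452, 390 and 450 in WT libraries (log2 difference 0.87, SE 0.14; limma adjusted p = 0.000878). Its groups were far apart, and it stayed past the threshold whichever of the 7 libraries was left out. Tesc, a calcium-binding protein, had lower values in all KO libraries (1247 ± 107 in KO and 1577 ± 69.3 in WT) but did not pass (limma adjusted p = 0.101). Nor did Rdx, the cortical linker radixin (21988 ± 3675 in KO and 16533 ± 2571 in WT; limma adjusted p = 0.0747), or its relative Ezr, ezrin (42.6 ± 1.02 in KO and 30.8 ± 10.8 in WT; limma adjusted p = 0.338).

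Of 14 tested bicarbonate transporters of the SLC4 and SLC26 families, 2 fell and 0 rose (median -0.02). Slc4a3, the chloride/bicarbonate exchanger AE3, had 15.4, 2.73 and 5.47 normalised counts in KO libraries and 21.0, 30.9, 47.7 and 26.0 in WT libraries (log2 difference -2.08, SE 0.46; limma adjusted p = 0.00940). Slc26a9, an anion transporter, had 56.3, 24.5 and 29.5 in KO libraries and 68.6, 75.6, 72.9 and 87.7 in WT libraries (-1.12, SE 0.28; limma adjusted p = 0.0190). In both genes KO 1 was the KO library nearest to WT, as it was for Slc9b1. Slc26a9 lost its call without KO 2, KO 3, WT 3 or WT 4, with limma adjusted p of up to 0.0887. Slc26a8, a sperm anion transporter, averaged 6.61 ± 2.84 in KO and 1.69 ± 1.61 in WT (limma adjusted p = 0.107), and Slc4a8, a sodium-driven bicarbonate exchanger, 1576.5 ± 157 in KO and 1959.9 ± 115 in WT (limma adjusted p = 0.130). Neither passed.

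The ion pumps and carbonic anhydrases had single called members. Of 8 tested sodium/potassium pump and FXYD genes 1 rose, Atp1b2, a beta subunit of the pump, and 0 fell (median 0.22). Atp1b2 had 5.45, 5.45 and 4.38 normalised counts in KO libraries and 0, 0, 0 and 1.08 in WT libraries (limma adjusted p = 0.0224), and no fold is given at these counts. It met the requirement for testing through the KO libraries, where it was high, so the filter favoured a call in that direction. Its call was lost without KO 2, KO 3, WT 1, WT 2 or WT 3 (limma adjusted p up to 0.0877). Fxyd6, a pump regulator, averaged 37.8 ± 13.4 in KO and 88.5 ± 41.7 in WT and did not pass in limma (adjusted p = 0.174), though DESeq2 on the recovered reads called it. DESeq2 gave no adjusted p for Atp1b2. Of 7 tested carbonic anhydrases 1 fell and 0 rose (median 0.08). It was Car10, a family member known to lack the enzyme activity, with 68.1, 66.4 and 40.5 in KO libraries and 153, 119, 162 and 142 in WT libraries (-1.32, SE 0.22; limma adjusted p = 0.00132). Car10 was called in all 7 fits with 1 library left out. Car9, an enzyme of the cell surface, averaged 685 ± 171 in KO and 937 ± 155 in WT and did not pass (limma adjusted p = 0.106).

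Of 23 tested vacuolar proton pump genes, which acidify the compartments that hold the organellar exchangers, 1 rose and 1 fell (median -0.07). Atp6ap2, an accessory subunit, had 455, 651 and 607 normalised counts in KO libraries and 434, 261, 297 and 407 in WT libraries (0.72, SE 0.19; limma adjusted p = 0.0252). Atp6v0a4, a membrane-sector subunit best known in the kidney, had 1.82, 0.909 and 0 in KO libraries and 7.63, 4.26, 13.1 and 9.75 in WT libraries (limma adjusted p = 0.0168). It met the requirement for testing through the WT libraries, where it was high. Atp6ap2 lost its call without KO 2, KO 3, WT 2 or WT 3 (limma adjusted p up to 0.104), and Atp6v0a4 without KO 3 or WT 3 (limma adjusted p up to 0.0674).

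Without KO 2 and KO 3, the libraries with the most granulosa cell RNA, 0 of the 7 genes named as risen or fallen were called, Atp1b2 being no longer tested. The log2 difference was then 0.79 for Scamp1, -1.06 for Car10 and -0.91 for Slc4a3, with limma adjusted p of 0.0537, 0.0748 and 0.517. It was -0.42 for Slc26a9, 0.41 for Atp6ap2 and -1.69 for Atp6v0a4, with limma adjusted p of 0.662, 0.590 and 0.407. With the mean granulosa marker level as a covariate, 0 of the 7 were called, and the log2 difference was 0.89 for Scamp1, -1.36 for Car10, -0.53 for Slc4a3, -0.24 for Slc26a9 and 0.03 for Atp6ap2. That fit called 1 of all 19227 genes tested. The exons of Atp6v0a4 and Car9 overlap those of other annotated genes, so their reads may be shared.

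The remaining lists had no called member. Of 6 tested sperm ion channel genes and the soluble adenylyl cyclase gene, the setting in which Slc9b1 is best known, 0 were called by limma, edgeR or DESeq2 and 1 had an unadjusted p under 0.05 (median -0.39). That gene was Catsperg1, an accessory subunit of the sperm calcium channel, with 0, 1.82 and 0 normalised counts in KO libraries and 0.953, 5.33, 3.74 and 6.50 in WT libraries (limma adjusted p = 0.120). Adcy10, the soluble adenylyl cyclase, averaged 15.5 ± 7.05 normalised counts in KO and 19.1 ± 3.60 in WT (limma adjusted p = 0.644), and Catsper3, a sperm calcium channel subunit, 20.5 ± 2.82 in KO and 29.3 ± 10.5 in WT (limma adjusted p = 0.518). Of 4 tested sodium/calcium exchangers 0 were called by the same 3 tools and 2 had an unadjusted p under 0.05 (median 0.32). Of 4 tested monocarboxylate transporter genes 0 were called by these tools and 0 had an unadjusted p under 0.05 (median 0.12).

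**Figure D3:**
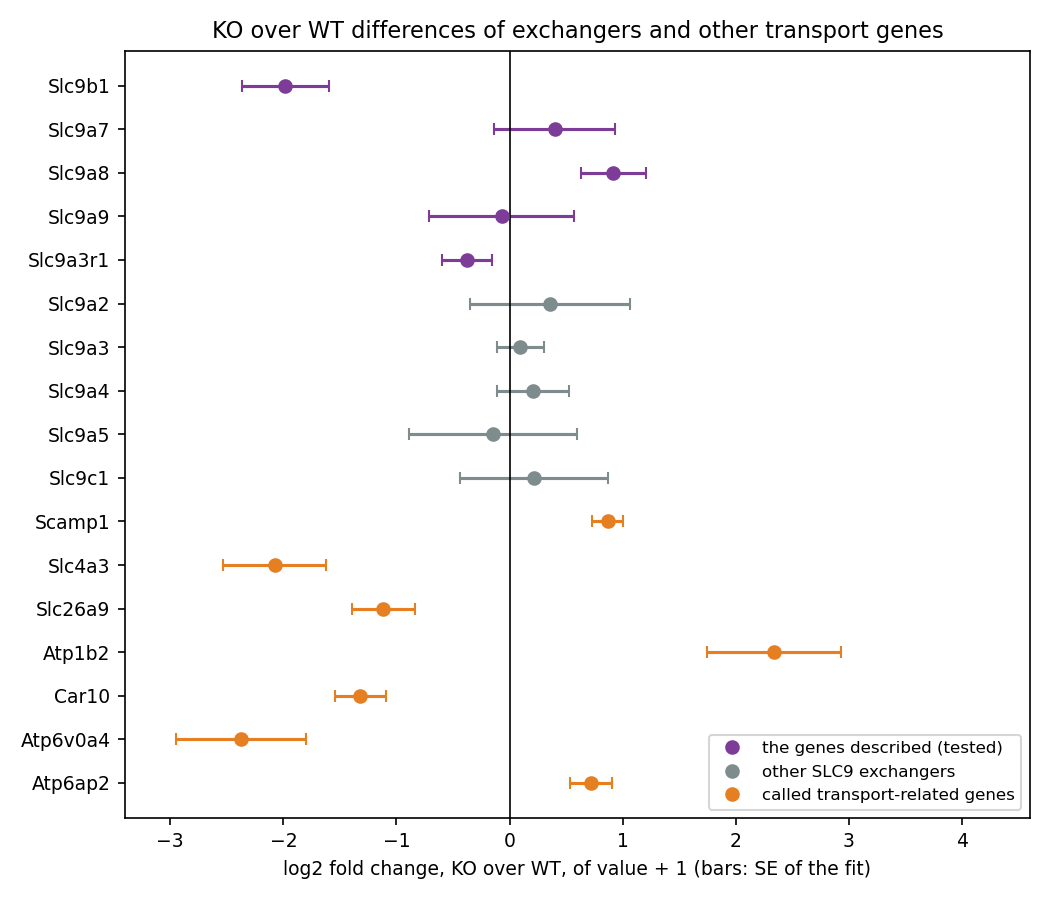
Log2 difference of KO over WT on the log2(value + 1) scale, with the SE of the limma fit, for the 5 tested members (purple), 5 other SLC9 exchangers (grey) and the 7 called genes of the transport lists (orange). Slc9b1 lies at -1.98, while the other SLC9 exchangers lie between -0.15 and 0.36 and Slc9a8 at 0.92.

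Genes next to Slc9b1 on chromosome 3 were compared to see whether they differed too. Distances run between the lowest coordinates of the genes in the deposited table, which for a gene on the minus strand is its 3′ end. Of 14 neighbouring rows within 500 kb, 9 were tested, and 1, Ube2d3, had an unadjusted p under 0.05. limma, edgeR and DESeq2 called 0 of them, against 6.71%, 6.53% and 9.18% of all genes they tested. At these shares 9 genes may well hold no call, so nothing is read from that count. Bdh2, Manba, Gm43379 and 4930539J05Rik also averaged only 2.15 to 5.48 normalised counts over all libraries. The median log2 difference of the 9 was 0.08. Upstream of Slc9b2, Bdh2, a dehydrogenase gene, had 5.45, 2.73 and 5.47 normalised counts in KO libraries and 0.953, 2.13, 0.935 and 2.17 in WT libraries (1.12, SE 0.57; limma adjusted p = 0.255), and Cenpe, a kinesin of the centromere, averaged 1948 ± 246 in KO and 2096 ± 151 in WT (limma adjusted p = 0.668). Downstream, Cisd2, an iron-sulphur protein gene on the minus strand at 58.4 kb, with its transcription start at 75.9 kb, had 633, 605 and 692 in KO libraries and 614, 584, 578 and 664 in WT libraries (0.08, SE 0.13; limma adjusted p = 0.795). Its groups overlapped.

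Ube2d3, a ubiquitin-conjugating enzyme gene at 90.1 kb, averaged 13055 ± 1125 in KO and 9799 ± 1683 in WT, with KO libraries all above WT libraries (0.43, SE 0.13; limma adjusted p = 0.0510). It passed under TMM scaling, without a filter on low values, and without KO 1 or WT 4. Its exons overlap those of an antisense gene, 4930539J05Rik, whose reads cannot be told apart from its own without strand. Manba, a lysosomal mannosidase gene at 138 kb, and Nfkb1, a transcription factor gene on the minus strand at 237 kb with its transcription start at 343.5 kb, had limma adjusted p of 0.801 and 0.921.

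**Figure D4:**
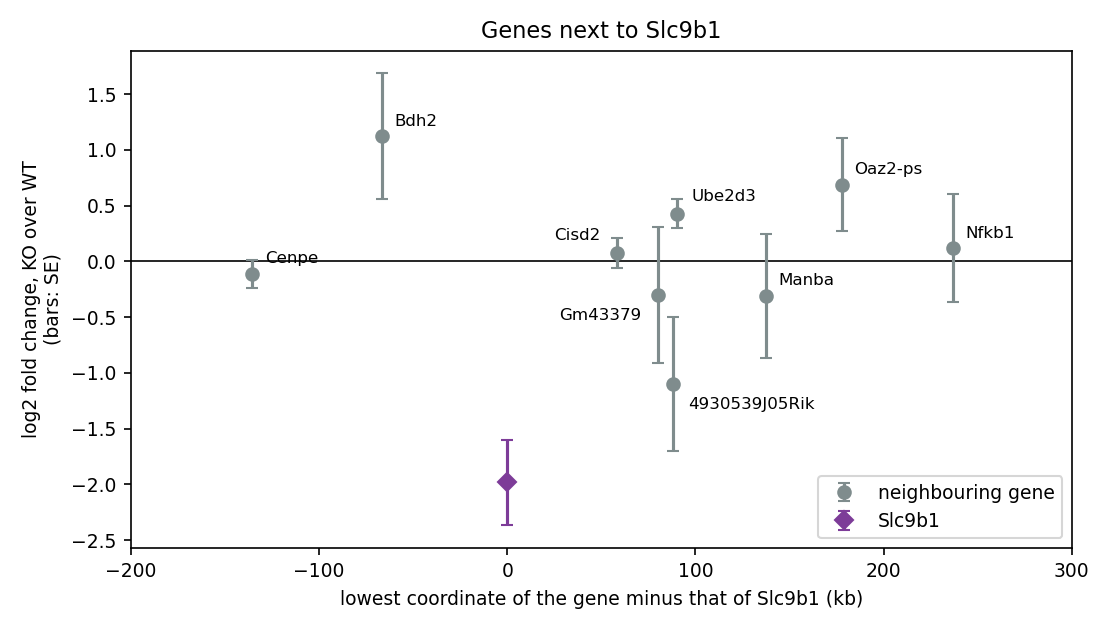
Log2 difference of KO over WT, with the SE of the limma fit, against the distance in kilobases of each gene's lowest coordinate from that of Slc9b1, for Slc9b1 (purple diamond) and the 9 tested neighbours (grey). Slc9b1 lies at -1.98 and its neighbours between -1.10 and 1.12, the widest bars belonging to rows with few reads.

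The genes whose pattern over the 7 libraries was most like that of Slc9b1 were ranked by the root mean square difference between centred log2 profiles, over genes with a mean of at least 50. The nearest was Mei4, a gene of meiotic recombination, at a distance of 0.14 log2 units, against a median of 1.13 over all genes compared. Mei4 had 52.7, 20.001 and 35.0 normalised counts in KO libraries and 135, 95.9, 159 and 119 in WT libraries. Both genes were highest in WT 3 and lowest in KO 2, and in both KO 1 was the highest of the KO libraries. The next were Dirc2 (0.19), a membrane transporter-like gene, Cmtm8 (0.22), Myl4 (0.22), a myosin light chain gene, and Popdc2 (0.26), whose protein binds cyclic AMP. In each of these KO 1 had the highest value among KO libraries and KO 2 the lowest. The Cmtm8 libraries had 88.1, 20.9 and 45.9 in KO and 199, 174, 288 and 247 in WT. Likeness here includes the difference between the groups, which is how Slc9b1 was chosen, so these values carry no test.

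Granulosa cell marker RNA also differed among the libraries. Of 16 granulosa cell markers, 14 were tested, and 1 (Bex2) rose and 1 (Cyp19a1) fell, against 3.09% and 3.63% of all genes tested. Bex2 had few reads, with means of 11.0 normalised counts in KO and 1.76 in WT. The median log2 difference of the 14 was 1.64. The summed level of the 16 markers was 495, 899 and 837 normalised counts in KO libraries and 497, 448, 456 and 439 in WT libraries. KO 2 and KO 3, the libraries with the least Slc9b1, were thus the highest in granulosa marker RNA, with 395 and 338 normalised counts of Inha, while KO 1 had 54.5 and WT libraries 11.9 to 66.7. Among WT libraries the sum of all 16 markers did not follow Slc9b1, being 456 in WT 3 and 448 in WT 2, which had the most and the least Slc9b1. Amh, a defining marker, was at 0.908, 8.18 and 7.66 in KO libraries and at 0.953, 0, 0 and 0 in WT libraries. KO 1, whose marker sum lay within the WT range, had 203 normalised counts of Slc9b1 against 332 in the lowest WT library. Nr5a2 and Cyp19a1 carried 24.7% to 61.7% of the sum in KO libraries and 68.9% to 90.3% in WT libraries, and Cyp19a1 ran against the other markers, with 98.1, 50.0015 and 86.4 in KO libraries and 151, 218, 171 and 178 in WT libraries. Over the 14 markers left without Nr5a2 and Cyp19a1, a choice made after the values were seen, the sums were 190 in KO 1, 677 in KO 2 and 548 in KO 3, against 43.7 to 154 in WT libraries. By that sum KO 1 also lay above the WT range. Among WT libraries it was 154 in WT 1, 43.7 in WT 2, 123 in WT 3 and 71.5 in WT 4. It was thus lowest in WT 2, as Slc9b1 was, and higher in WT 1 and WT 3, which had the most Slc9b1. Whether the sum and Slc9b1 are related was not tested. Without KO 2 and KO 3, where the spread of KO had to be taken from the WT libraries, the log2 difference of Slc9b1 was -1.07. With the mean marker level as a covariate it was -1.19, in a fit that called 1 of the 19227 genes tested.

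Markers of other cells were low or were set by few genes. The 5 detected rows of theca and stroma summed to 10.9 to 23.6 in KO and 15.0 to 28.8 in WT. The leukocyte rows summed to 187 to 275 in KO and 543 to 578 in WT, nearly all of it C1qb, and the endothelial rows to 164 to 225 in KO and 190 to 223 in WT, most of it Pecam1. All 13 oocyte markers with a row were detected in every library, with sums of 213964 to 335142 in KO and 186275 to 247371 in WT. Of these, 1 rose in KO, against 3.09% of all genes tested. It was Ddx4, a germ cell RNA helicase, with 1305, 2337 and 2070 normalised counts in KO libraries and 824, 736, 594 and 988 in WT libraries (limma adjusted p = 0.00287). Nlrp5, a maternal-effect gene, had 16810, 33914 and 29642 in KO libraries and 14025, 12759, 9108 and 15964 in WT libraries and did not pass (limma adjusted p = 0.0976). Both were highest in KO 2 and KO 3, the libraries lowest in Slc9b1. The part of these in the differences of the 6 genes was not tested.

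**Figure D5:**
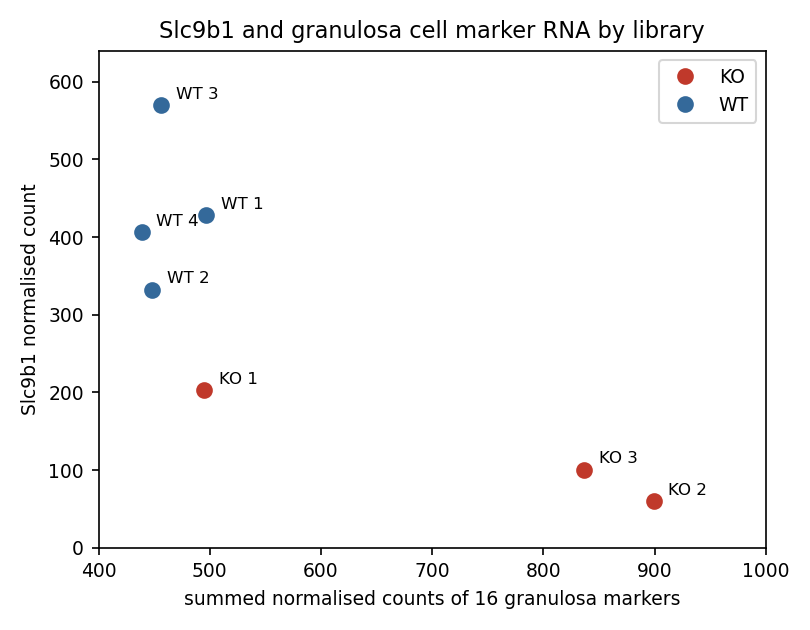
Normalised count of Slc9b1 (vertical axis, from 0) against the summed normalised counts of 16 granulosa cell markers (horizontal axis, from 400) in each library, KO in red and WT in blue. KO 2 and KO 3 lie at lower right, and KO 1 has a marker sum like that of WT 1 (495 and 497) with Slc9b1 at 203 and 428.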

How the data were processed

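RNA was sequenced from 7 libraries of 5 oocytes, made with Smart-Seq2 and a transposase kit that does not mark strand, as 75-base read pairs, per the labels' protocols. The submitters' processing notes name GRCm38 (mm10) as the build, STAR, cutadapt and FastQC, and both DESeq and DESeq2; the sources used here do not name the counter. The authors deposited 1 signal value per gene and library, a gene count divided by a size factor, as the values themselves show: divided by each library's smallest step, 100% of values not above 1000 reads, and 99.96% or more of all values, lay within 0.05 of a whole number.

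The main test was limma 3.58.1 (R 4.3.3; trend and robust variance) on log2(value + 1), for the 19227 genes that reached 1 in 3 or more libraries; a call is a Benjamini-Hochberg adjusted p under 0.05. edgeR 4.0.16 on the recovered reads called 1255 genes and DESeq2 1.42.0 called 1457. The limma step was tested on simulated data. Coordinates and exon lengths come from GENCODE M21 (GRCm38), in which 23734 rows matched by name and start. Named genes were the members, Mfn1 and Mfn2, up to 4 genes with the smallest p per list, named neighbours within 250 kb of Slc9b1 by lowest coordinate and the 5 genes nearest to it in pattern; Gm-number, Rik and ps names were left out of the last 2 groups. Not all are printed, and some exchangers are not reported here. The members, lists and tests were chosen with earlier results of these data known.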

Additional observations from a re-analysis of the deposited data

Results flagged for a closer look

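Among 54 genes named or eligible for naming, 1 had a WT library set apart from the other 3 by more than the 95% critical value of Dixon's test. It was Atp1b2, at 1.08 normalised counts in WT 4 and at 0 in WT 1, WT 2 and WT 3. Chance sets apart about 1 group in 20 when values are continuous. The value in WT 4 is 1 read, so the gap fills the whole range and that rate does not apply here.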

How the results depend on the processing

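Slc9b1 was lower in KO in all 17 alternatives, with log2 differences of -2.44 to -1.57 when 1 library was left out, -1.07 without KO 2 and KO 3, -1.19 with mean granulosa marker level as a covariate and -2.01 to -1.83 in the others. The alternatives re-fit the same libraries in which the decrease of Slc9b1 was already known, so the shared sign carries no independent evidence. Of the members tested, 0 to 1 were called with 1 library left out (0 without KO 3 or WT 1), 2 with the filter raised to 10, and 0 with the covariate. The 1291 calls over all genes became 594 (without WT 3) to 1767 (without KO 1) with 1 library left out, 98 without KO 2 and KO 3, and 1 with the covariate; without KO 2 there were 604, without WT 1 728, without WT 2 710 and without KO 3 821. The 7 calls of the transport lists became 3 to 9 with 1 library left out (3 without WT 3, 4 without KO 2 and 4 without KO 3), 0 without KO 2 and KO 3, and 0 with the covariate. Of the neighbours of Slc9b1, 1 was called under TMM scaling, 1 with no filter and 0 to 1 with 1 library left out. The cause of these shifts was not tested. No sign was seen that replicate numbers in the titles pair the libraries. Same-numbered KO and WT libraries had deviations correlated at -0.12, 0.03 and 0.02, and no KO library correlated best with its own number. These correlations cannot exclude a pairing, which the labels do not mention. With the replicate block, which leaves out WT 4, 1010 genes and 1 member were called and the log2 difference of Slc9b1 was -2.01. Depth limits Slc9a7, Slc9a9 and Slc9b2, which had at most 7, 3 and 2 reads per library.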
